A study of Mus musculus with 12 samples.

Results

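Genomic imprinting was examined in mouse collecting duct cells that lack Pkd1 or Pkd2, the genes mutated in autosomal dominant polycystic kidney disease. The gene group consisted of 40 imprinted genes, chosen by symbol and matched through their Ensembl identifiers to rows of the deposited table, which lists 47642 genes. The 40 genes fall into 18 clusters or single loci, 9 of which hold several of them. By textbook assignment in the mouse, 22 are usually active from the paternal copy and 16 from the maternal copy, and Blcap and H13 were given no side.

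Imprinted genes are expressed from the copy inherited from a given parent, because DNA methylation laid down in the germ line marks a control region on the maternal or the paternal copy. The marked copy is silent at some genes and active at others. Neighbouring imprinted genes share such control regions, so a cluster often holds both paternally and maternally expressed genes, many of them regulators of fetal growth, and many are silenced in most tissues after birth. Read counts per gene sum both parental copies. They measure the level of an imprinted gene and say nothing of which copy it came from.

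RNA was sequenced from mIMCD3 cells, an SV40-transformed mouse line from the inner medullary collecting duct, in 3 genotypes with 4 libraries each. Wild-type cells (Wt) were compared with Pkd1-/- cells, which carry large deletions of Pkd1 on both copies of chromosome 17, and with Pkd2-/- cells, which carry a deletion inside Pkd2 on chromosome 5. Each mutant is 1 clone, made with CRISPR for Pkd1 and with TALEN nucleases for Pkd2, so an effect of the deletion and a difference between clones cannot be told apart. The libraries of a genotype are separate culture dishes of that line, harvested 4 days after full confluency, and the p-values measure the spread between dishes. Of 6 dishes grown per genotype 4 were sequenced, and the labels name no treatment. Both mutants were compared with the same 4 Wt libraries.

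The libraries held an estimated 23188147 to 30318690 reads in genes, and 18611 to 19360 genes were above 0 in each. Pkd1 fell from 682 to 883 normalized counts in Wt to 30 to 49 in Pkd1-/- libraries, whose deletion takes 90.4% of its annotated exon bases. Pkd2 was at 3855 to 4135 normalized counts in the libraries labelled Pkd2-/- and at 3438 to 4467 in Wt. The Pkd2 deletion takes 14.7% of its annotated exon bases, so the count over the whole gene does not check that label. Of 19 markers of collecting duct and renal epithelium, 15 were above 3 normalized counts in some library, among them Cdh1, Epcam and Krt8, and their summed level was 76415 to 84657 in Wt, 74155 to 75593 in Pkd1-/- and 86879 to 90235 in Pkd2-/-. Aqp2, Aqp4, Avpr2 and Slc14a2, which define the mature collecting duct in the animal, were at most 3 in every library. Of this list Gata3 fell in Pkd1-/- (log2 fold change -2.20, adjusted p = 6.34e-10), and Scnn1g fell in Pkd1-/- (-1.62) and in Pkd2-/- (-1.86). By the rule for calls given below, 15 of the list were tested. In Pkd1-/- 1 was called higher and 2 lower, beside 6.24% of all genes. In Pkd2-/- 0 were higher and 1 was lower, beside 9.62%. By the adjusted p alone, 1 was higher and 4 were lower in Pkd1-/-, beside 27.1%. In Pkd2-/- 8 were higher and 3 lower by it, beside 42.3%. Median log2 fold changes of the 15 were -0.09 and 0.30. Among 5 markers of the proximal tubule, Lrp2 fell in Pkd1-/- from 508 ± 37.1 (SD, n = 4) to 46.3 ± 16.0 and Aqp1 rose from 231 ± 18.3 to 577 ± 37.5. The summed level of 5 endothelial markers was at most 9, that of 5 leukocyte markers was 428 to 1000 and that of 4 podocyte markers 2035 to 3478. The part of these differences in the values below was not tested.

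Of the 40 imprinted genes, 27 passed the filter of a mean of at least 1 normalized count over the 12 libraries, and 13 did not. All 18552 genes that passed were fitted with limma after log2(value + 1), and a gene was called where its Benjamini-Hochberg adjusted p was below 0.05 and its level differed by a log2 fold change of 1 or more in size. Fold changes on this scale understate the change of genes at a few counts. In Pkd1-/- against Wt, 5 imprinted genes were called, and 6.24% of all genes tested were called. Igf2, Phlda2 and Mest were higher, beside 2.96% of all genes, and Peg3 and Usp29 were lower, beside 3.28%. In Pkd2-/- against Wt, 11 were called, beside 9.62% of all genes tested. Phlda2 and Mcts2 were higher, beside 3.24% of all genes, whereas H19, Igf2, Slc22a18, Peg10, Mest, Plagl1, Grb10, Mkrn3 and Gatm were lower, beside 6.38%. Between the mutants, 11 were called, beside 11.8% of all genes tested. Peg3 and Usp29 were higher in Pkd2-/- than in Pkd1-/-, beside 4.53% of all genes, and H19, Igf2, Cdkn1c, Slc22a18, Peg10, Mest, Plagl1, Mkrn3 and Gatm were lower, beside 7.23%. The median log2 fold change of the 27 tested was -0.05 in Pkd1-/- against Wt, -0.26 in Pkd2-/- against Wt and -0.34 between the mutants, beside 0.01, -0.01 and -0.01 over all genes tested. The first became 0.01 without Pkd1-/- library 1. The second became -0.48 without Pkd2-/- library 2 and -0.40 without Wt library 3. With a correction for GC content and length, the second became -0.42 and the third -0.17.

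**Figure D1:**
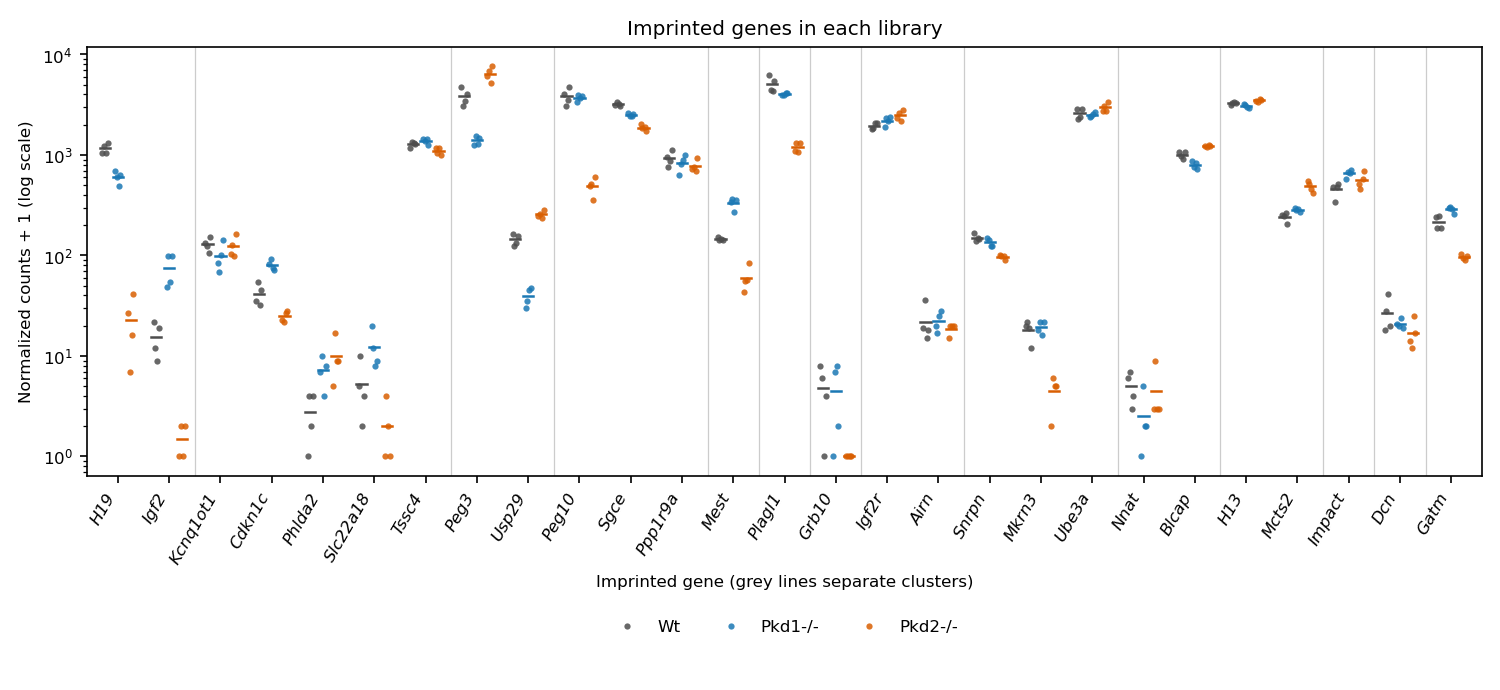
Normalized counts plus 1 on a log axis for the 27 imprinted genes tested, with 1 point for each of the 12 libraries, a bar for each genotype mean and grey lines between clusters. Igf2 ranges from 0 or 1 in Pkd2-/- to 48 to 98 in Pkd1-/-, and H19 and Peg10 sit far lower in Pkd2-/- than in both other genotypes.

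For a single gene, 4 libraries against 4 allow 70 splits, and the smallest two-sided exact permutation p is 0.0286. H19, Igf2, Cdkn1c, Peg3, Usp29, Sgce, Mest, Plagl1, Blcap, Mcts2 and Gatm, 11 of the 27, reached that value in all 3 comparisons, since no 2 of their genotype ranges overlapped. Over all genes tested this held for 11.1%.

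Promoter windows are shown for Peg3, Igf2, Mest, Plagl1 and Mcts2, called genes of 5 loci, because imprints sit on CG dinucleotides and many lie at gene starts. None is shown for H19, Peg10 and Sgce. Each window runs from 250 bases before to 50 bases after a RefSeq transcript start in GRCm38.p6, on the strand of the gene, with every CG in capitals. For genes with several starts the window with most CG is shown.
Peg3, chr7:6730370-6730669, minus strand: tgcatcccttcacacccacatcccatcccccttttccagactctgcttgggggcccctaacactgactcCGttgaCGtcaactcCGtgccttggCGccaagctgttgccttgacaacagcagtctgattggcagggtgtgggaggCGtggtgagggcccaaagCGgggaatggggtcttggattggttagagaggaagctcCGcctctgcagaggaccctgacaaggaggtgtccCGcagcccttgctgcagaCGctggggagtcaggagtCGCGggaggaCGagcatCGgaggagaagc
Igf2, chr7:142658755-142659054, minus strand: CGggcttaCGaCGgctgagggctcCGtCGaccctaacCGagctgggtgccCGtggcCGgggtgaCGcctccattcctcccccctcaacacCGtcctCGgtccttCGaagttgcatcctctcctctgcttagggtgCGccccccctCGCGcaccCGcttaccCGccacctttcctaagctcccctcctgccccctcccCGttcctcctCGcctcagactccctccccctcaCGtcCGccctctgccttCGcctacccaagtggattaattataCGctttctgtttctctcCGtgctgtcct
Mest, chr6:30737800-30738099, plus strand: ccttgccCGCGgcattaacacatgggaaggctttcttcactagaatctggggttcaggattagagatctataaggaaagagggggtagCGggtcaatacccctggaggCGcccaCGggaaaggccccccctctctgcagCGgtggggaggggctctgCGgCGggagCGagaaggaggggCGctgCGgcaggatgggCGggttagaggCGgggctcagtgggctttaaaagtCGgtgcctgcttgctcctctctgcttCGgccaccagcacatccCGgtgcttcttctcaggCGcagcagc
Plagl1, chr10:13090582-13090881, plus strand: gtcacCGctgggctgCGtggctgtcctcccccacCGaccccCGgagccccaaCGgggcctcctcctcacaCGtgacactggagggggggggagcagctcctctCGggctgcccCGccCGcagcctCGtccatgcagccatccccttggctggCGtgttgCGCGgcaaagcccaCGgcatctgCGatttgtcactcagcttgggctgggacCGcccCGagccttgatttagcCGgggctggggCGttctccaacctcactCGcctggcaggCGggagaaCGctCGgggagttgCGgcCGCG
Mcts2, chr2:152686898-152687197, plus strand: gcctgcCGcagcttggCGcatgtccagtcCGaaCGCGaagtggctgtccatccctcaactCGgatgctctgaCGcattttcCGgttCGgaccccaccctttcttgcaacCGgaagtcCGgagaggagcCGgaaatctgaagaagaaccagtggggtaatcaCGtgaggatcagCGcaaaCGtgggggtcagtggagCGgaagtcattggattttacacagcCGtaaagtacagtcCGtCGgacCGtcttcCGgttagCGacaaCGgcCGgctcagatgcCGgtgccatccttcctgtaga
The Peg3 and Usp29 windows share 263 bases, as both genes start at the same CG-rich region in opposite directions. The CG count was 13 for Peg3, 24 for Igf2, 17 for Mest, 26 for Plagl1 and 25 for Mcts2, beside a median of 7 over all 32851 RefSeq windows of this kind in the mouse. That median is over windows not chosen by CG. The other windows of Igf2 held 7, 14 and 2 CG, and those of Mest 8 and 17.

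The H19 and Igf2 pair on distal chromosome 7 held the largest log2 differences among the 27 imprinted genes tested. H19 (chr7:142575529-142578143, minus strand) encodes a maternally expressed long non-coding RNA, and Igf2 (chr7:142650766-142666816, minus strand) a paternally expressed fetal growth factor. They share enhancers, and a control region between them binds the insulator protein CTCF on the unmethylated maternal copy. H19 was at 1054, 1238, 1040 and 1326 normalized counts in Wt. The Pkd1-/- libraries held 685, 600, 494 and 629, about 51.7% of the Wt mean. In Pkd2-/- only 26, 6, 15 and 40 were left, or 1.87% of the Wt mean. The 3 genotypes did not overlap. H19 fell by 5.95 on the log2 scale in Pkd2-/- against Wt (SE 0.34, adjusted p = 5.05e-11) and by 5.00 against Pkd1-/- (adjusted p = 4.80e-10). In Pkd1-/- against Wt the log2 fold change was -0.95 (SE 0.34, adjusted p = 0.0425), just under the fold threshold.

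Igf2 was low in Wt, at 21, 11, 8 and 18 normalized counts. It was at 48, 97, 53 and 98 in Pkd1-/- and at 0, 1, 0 and 1 in Pkd2-/-. The 3 genotypes thus did not overlap, with Pkd1-/- highest. Igf2 rose by a log2 fold change of 2.29 in Pkd1-/- (SE 0.39, adjusted p = 1.56e-04) and fell by 3.37 in Pkd2-/- (adjusted p = 8.94e-07). The Pkd2-/- libraries held 2 counts in all against 58 in Wt, a ratio of 29 with a 95% counting interval of 7.67 to 245, which covers counting error only. Between the mutants Igf2 was lower in Pkd2-/- by a log2 difference of -5.65 (SE 0.39, adjusted p = 5.82e-10). Current annotation gives 62.8% of the Igf2 exon bases also to a transcript named Gm49394, which is not a row of the table used here, so the counts may be split differently under another annotation. In Pkd1-/- Igf2 rose while H19 was at about 51.7% of its Wt mean, and 7.01 to 16.2 counts of Igf2 were found per 100 counts of H19, beside 0.77 to 1.99 in Wt. In Pkd2-/- both fell, and this ratio rests on 6 to 40 counts of H19. These ratios, like those of the pairs below, were computed after the values were seen.

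Some genes beside H19 and Igf2 were called too. Of 23 tested genes within 1 Mb of this pair, 1 was called in Pkd1-/- (6.24% over all genes) and 4 in Pkd2-/- (9.62%). Ifitm10, Syt8 and Lsp1, which start 204, 143 and 117 kb to the left of H19, fell in Pkd2-/- by 1.83, 2.45 and 1.73 on the log2 scale, at means over all libraries of 26.3, 5.75 and 1.83 normalized counts. Tnfrsf23, beyond the Kcnq1ot1 domain, rose there by a log2 fold change of 1.37. These 4 were named after their values were seen. Markers of fibroblasts, which express Igf2 and Mest in the embryo, were read in the same libraries. The summed level of 7 such markers was 38 to 94 in Wt, 359 to 390 in Pkd1-/- and 3 to 139 in Pkd2-/-. Of these 7, 4 were tested. Postn and Col3a1 were called higher in Pkd1-/- (6.24% over all genes), and Postn lower in Pkd2-/- (9.62%). Postn made up most of the Pkd1-/- sum, with means of 55.5 in Wt, 296.5 in Pkd1-/- and 6.5 in Pkd2-/-. Col1a1 and Col1a2 were called in neither mutant. Col1a1 had means of 4.25, 5.25 and 13.25 in the same order, and Col1a2 log2 fold changes of -0.25 in Pkd1-/- and 1.12 in Pkd2-/-. Pdgfra, Lum and Thy1, which define fibroblasts, were at most 3 in every library. The part of these genes in the Igf2 and Mest values was not tested. In bulk libraries, fewer cells with a transcript and less of it per cell cannot be told apart.

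The Kcnq1ot1 domain lies next to H19 and Igf2, and is controlled by the paternally expressed antisense RNA Kcnq1ot1 (chr7:143203458-143296549, minus strand), which silences its neighbours on the paternal copy. Kcnq1ot1 itself was at 106 to 150 normalized counts in Wt, 67 to 143 in Pkd1-/- and 97 to 161 in Pkd2-/-. The 3 ranges overlapped, and no comparison passed the test (adjusted p = 0.134 for Pkd1-/- and 0.768 for Pkd2-/- against Wt). Without strand in the counting, its reads and those of Kcnq1, inside which it lies on the other strand, cannot be told apart, and the strand setting is not given in the sources used here.

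Cdkn1c (chr7:143458339-143461050), a maternally expressed inhibitor of cyclin-dependent kinases, was at 34, 53, 31 and 44 normalized counts in Wt. It was at 81, 92, 74 and 70 in Pkd1-/- and at 22, 21, 26 and 27 in Pkd2-/-. No 2 genotypes overlapped. Against Wt neither mutant reached the fold threshold, with log2 fold changes of 0.97 (SE 0.20, adjusted p = 8.95e-04) and -0.71 (adjusted p = 0.00677). The Pkd1-/- value passed it without Wt library 2 or 4 and without Pkd1-/- library 3 or 4, at up to 1.11. Between the mutants Cdkn1c was lower in Pkd2-/- by a log2 difference of -1.68 (adjusted p = 9.09e-07). In the current annotation 30.7% of its exon bases are shared with an antisense gene.

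Phlda2 and Slc22a18 rested on few counts. Phlda2, a maternally expressed gene that restrains placental growth, was at 0, 3, 1 and 3 normalized counts in Wt, at 6, 9, 3 and 7 in Pkd1-/- and at 4, 16, 8 and 8 in Pkd2-/-. It was called higher in both mutants, with log2 fold changes of 1.53 (SE 0.50, adjusted p = 0.0296) and 1.94 (adjusted p = 0.00414). The Pkd1-/- and Wt ranges met at 3 counts. Over 22 alternatives the Pkd1-/- value ran from 0.74 to 1.87 with adjusted p up to 0.105, and the call was lost without Wt library 1 or 3 and without Pkd1-/- library 1, 2 or 4. Slc22a18, a transporter of the organic cation family, was at 4, 9, 1 and 3 in Wt, at 19, 11, 7 and 8 in Pkd1-/- and at 0, 3, 1 and 0 in Pkd2-/-. Its fall in Pkd2-/- against Wt (-1.41, SE 0.55, adjusted p = 0.0462) was lost under 14 of 22 alternatives, among them those without Wt library 1, 2 or 4, without Pkd1-/- library 2, 3 or 4 and without Pkd2-/- library 1, 3 or 4, with log2 fold changes from -1.85 to -0.58 and adjusted p up to 0.169. Between the mutants its ranges did not overlap, and it was lower in Pkd2-/- by a log2 difference of -2.77 (adjusted p = 3.53e-04). Tssc4, at 1002 to 1448 normalized counts, was not called in any comparison, and Ascl2 was at 0 in all libraries. Kcnq1, the potassium channel gene that hosts Kcnq1ot1, is not among the 40. It rose in Pkd1-/- from 46 to 56 in Wt to 101 to 144 (log2 fold change 1.22, adjusted p = 1.76e-05), and was at 43 to 66 in Pkd2-/-.

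The Peg3 domain on proximal chromosome 7 moved in the other order. Peg3 (chr7:6703892-6730431, minus strand) encodes a zinc finger transcription factor and Usp29 (chr7:6730578-6967219, plus strand) a member of the ubiquitin-specific protease family. Their starts lie 147 bases apart at the imprinted promoter printed above, and both are expressed from the paternal copy. Peg3 was at 4721, 3089, 3426 and 4072 normalized counts in Wt. It was at 1253, 1559, 1297 and 1478 in Pkd1-/- and at 6137, 6893, 5189 and 7595 in Pkd2-/-. Pkd1-/- libraries were lowest and Pkd2-/- libraries highest, with no overlap. Peg3 fell by 1.44 on the log2 scale in Pkd1-/- (SE 0.12, adjusted p = 2.46e-08). In Pkd2-/- its log2 fold change of 0.76 (adjusted p = 3.74e-05) was under the fold threshold, and between the mutants it was 4.59-fold higher in Pkd2-/- (log2 2.20, adjusted p = 1.95e-11).

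Usp29 showed the same order at a lower level. It was at 161, 123, 133 and 157 normalized counts in Wt, at 29, 34, 44 and 47 in Pkd1-/- and at 246, 257, 234 and 285 in Pkd2-/-. It fell by 1.89 on the log2 scale in Pkd1-/- (SE 0.15, adjusted p = 1.72e-08), and its log2 fold change in Pkd2-/- was 0.83 (adjusted p = 1.82e-04). Between the mutants the log2 difference was 2.72 (adjusted p = 3.06e-11). The ratio of the pair moved less than either gene, at 3.41 to 3.98 counts of Usp29 per 100 of Peg3 in Wt, 2.18 to 3.39 in Pkd1-/- and 3.73 to 4.51 in Pkd2-/-. Zim1, the maternally expressed zinc finger gene next to them, was at most 1. Against Wt, limma called 0 of the 21 tested genes within 1 Mb, beside 6.24% of all genes in Pkd1-/- and 9.62% in Pkd2-/-. In each mutant 4 of them passed the adjusted p alone, with a change under the fold threshold, and 4 in Pkd1-/- and 5 in Pkd2-/- had an unadjusted p below 0.05. Over all genes 27.1% and 42.3% passed the adjusted p alone.

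Peg10 and Sgce on chromosome 6 form a further pair of paternally expressed genes with starts 99 bases apart. Peg10 (chr6:4747306-4760517, plus strand) derives from a retrotransposon and is required in the placenta, and Sgce (chr6:4674350-4747207, minus strand) encodes epsilon-sarcoglycan. Peg10 was at 4086, 3079, 3506 and 4702 normalized counts in Wt and at 3400, 3931, 3677 and 3880 in Pkd1-/-, ranges that overlapped. In Pkd2-/- it was at 488, 512, 358 and 609, far under both. Peg10 fell by 2.97 on the log2 scale in Pkd2-/- (SE 0.13, adjusted p = 1.34e-12), and its value in Pkd1-/- was -0.03 (adjusted p = 0.904). Sgce was at 3144, 3346, 3189 and 3047 in Wt, at 2642, 2424, 2467 and 2540 in Pkd1-/- and at 2019, 1858, 1906 and 1716 in Pkd2-/-. The genotypes did not overlap, but the log2 fold changes of -0.34 (adjusted p = 7.38e-05) and -0.76 (adjusted p = 9.44e-10) stayed under the fold threshold. Unlike Usp29 and Peg3, the pair came apart. There were 92.0 to 154 counts of Peg10 per 100 of Sgce in Wt, 129 to 162 in Pkd1-/- and 18.8 to 35.5 in Pkd2-/-. Ppp1r9a, a maternally expressed actin-binding scaffold gene of the domain, was at 626 to 1129 with overlapping genotypes and was not called.

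**Figure D2:**
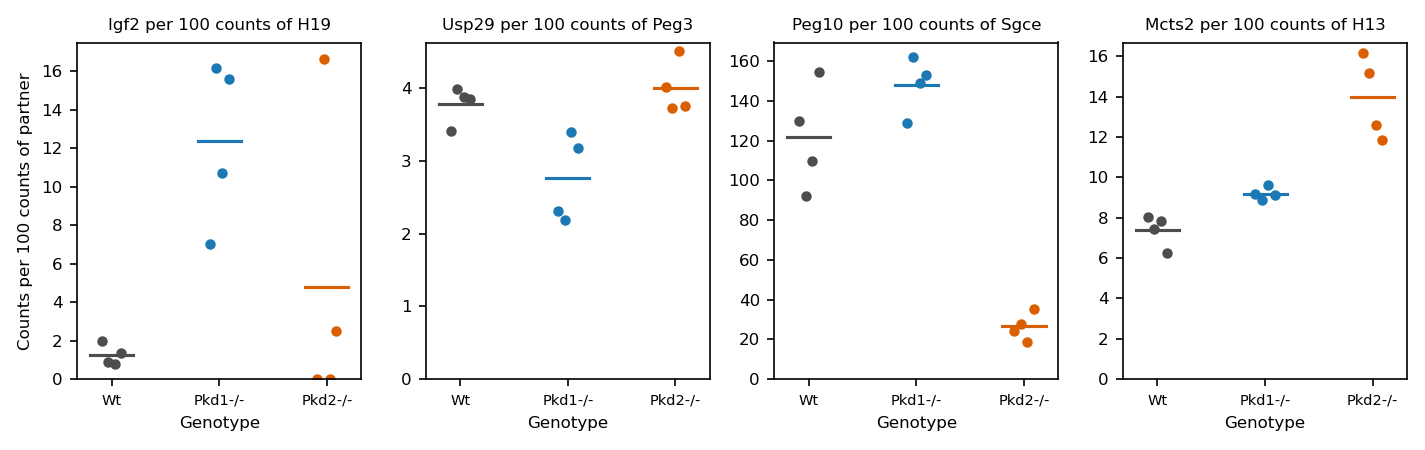
Ratio of normalized counts within 4 pairs of neighbouring imprinted genes, as counts of the first gene per 100 counts of the second, with 1 point per library and a bar for the mean of each genotype on axes that start at 0. Peg10 per 100 counts of Sgce is lowest in Pkd2-/- at 18.8 to 35.5, and the Pkd2-/- points of Igf2 and H19 rest on 0 or 1 count of Igf2.

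**Figure D3:**
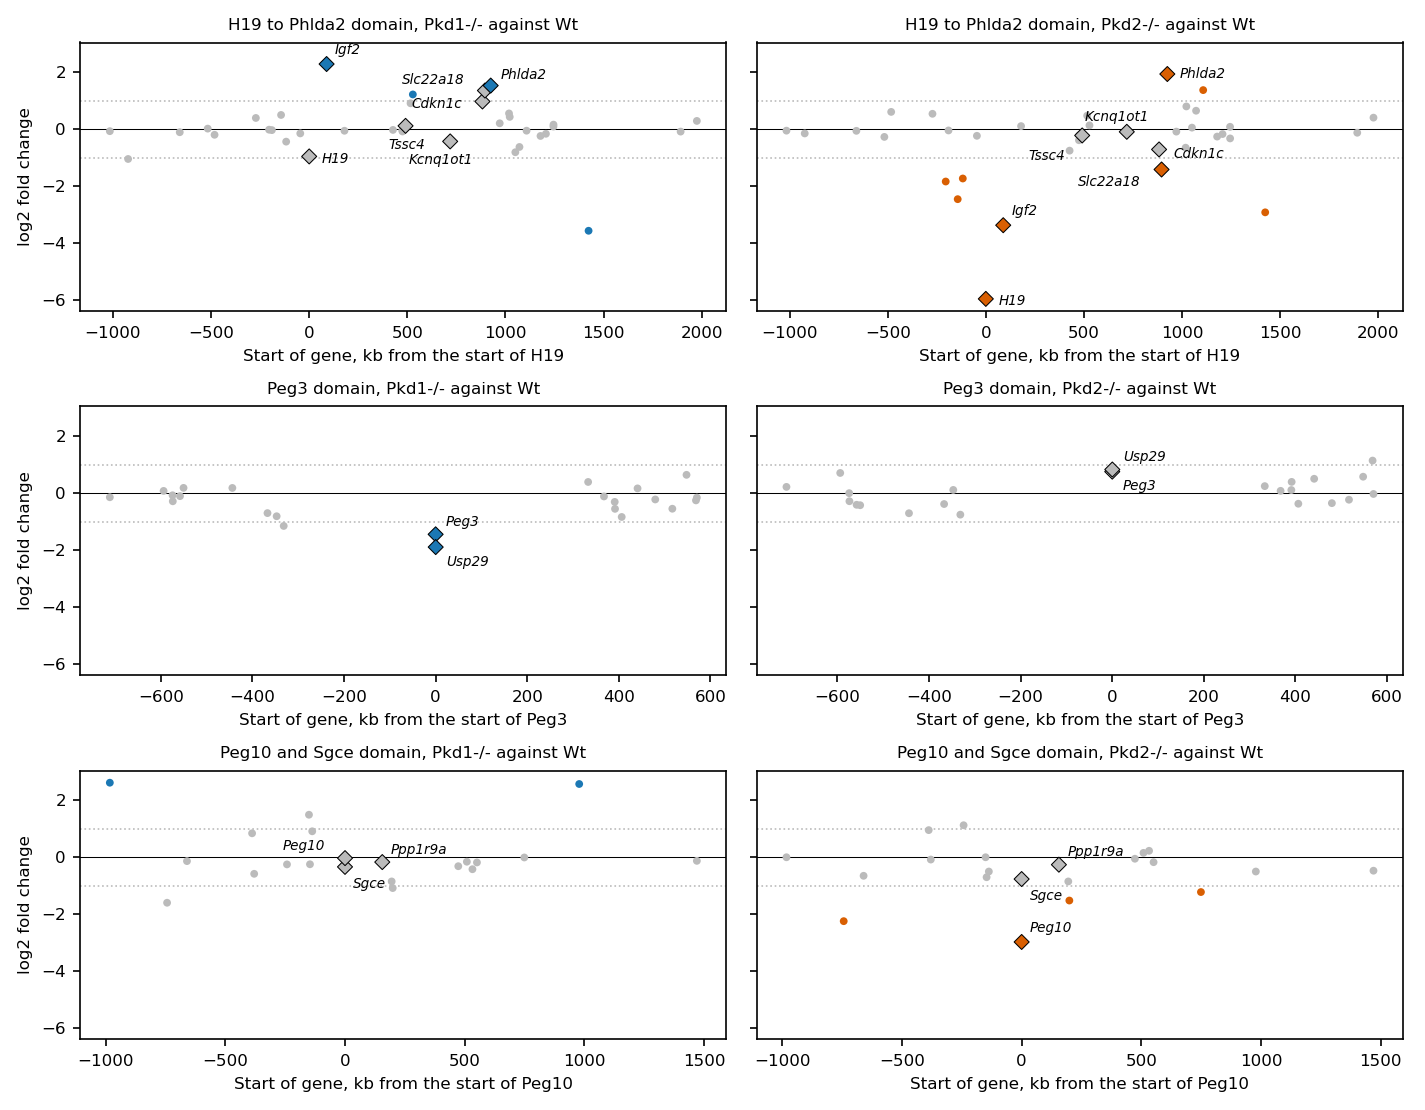
Log2 fold change of every tested gene within 1 Mb of the imprinted genes of 3 domains against the distance of its start from that of H19, Peg3 or Peg10 in kb, for Pkd1-/- (left) and Pkd2-/- (right) against Wt. Diamonds are imprinted genes of the group, and circles are their neighbours, other imprinted genes such as Kcnq1 among them. Colour marks called genes and dotted lines the fold threshold. Peg3 and Usp29 lie below all neighbours in Pkd1-/-, and H19, Igf2 and Peg10 lie lowest in their domains in Pkd2-/-.

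Mest (chr6:30723547-30748465, plus strand), a paternally expressed gene of the hydrolase fold family with high levels in embryonic mesoderm, had the pattern of Igf2 at a higher level. It was at 150, 142, 146 and 141 normalized counts in Wt, at 339, 364, 270 and 352 in Pkd1-/- and at 42, 55, 56 and 83 in Pkd2-/-. The genotypes did not overlap. Mest rose by a log2 fold change of 1.18 in Pkd1-/- (SE 0.16, adjusted p = 1.34e-05) and fell by 1.32 in Pkd2-/- (adjusted p = 1.64e-06), and between the mutants it was lower in Pkd2-/- by a log2 difference of -2.50 (adjusted p = 2.10e-10). Copg2 shares 23.1% of the Mest exon bases on the opposite strand. Copg2 was at 3809 to 4118 in Wt, 3722 to 3992 in Pkd1-/- and 3216 to 3292 in Pkd2-/-, with no rise in Pkd1-/-.

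**Figure D4:**
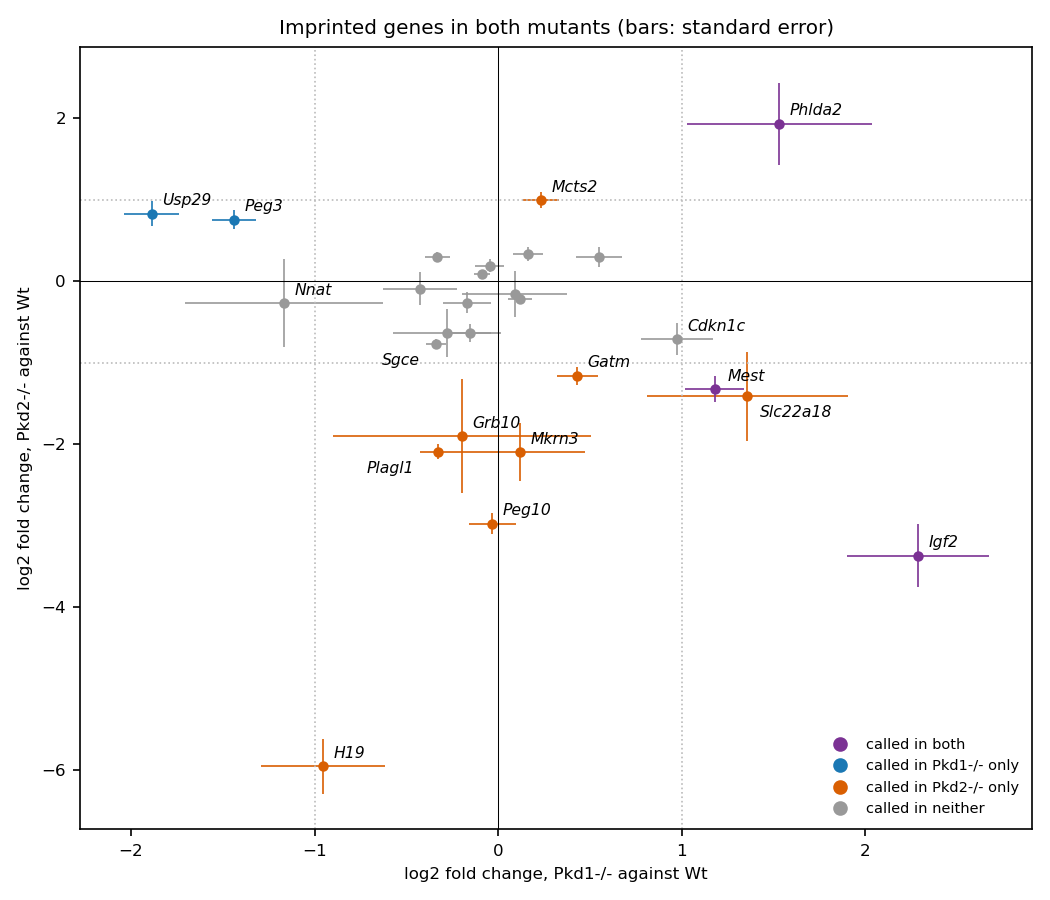
Log2 fold changes against Wt of the 27 imprinted genes tested, in Pkd1-/- on the x axis and Pkd2-/- on the y axis, with standard errors as bars, colours for the comparisons in which a gene was called and dotted lines at the fold threshold. Both axes use the same 4 Wt libraries. Igf2 and Mest lie to the right of 0 and below it, Peg3 and Usp29 to the left and above, and Peg10, Plagl1 and Mkrn3 straight below.

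Plagl1 (chr10:13060504-13131694, plus strand), a paternally expressed zinc finger transcription factor that can arrest the cell cycle, was among the most abundant of the group in Wt. Its libraries held 6225, 4448, 4355 and 5422 normalized counts in Wt, 3917, 3912, 4102 and 4175 in Pkd1-/-, and 1096, 1304, 1060 and 1306 in Pkd2-/-. Every Pkd2-/- library was far under every other library. Plagl1 fell by 2.09 on the log2 scale in Pkd2-/- (SE 0.09, adjusted p = 2.02e-12), to 23.3% of the Wt mean, and its log2 fold change in Pkd1-/- was -0.33 (adjusted p = 0.0130). Phactr2, a phosphatase and actin regulator 76.0 kb from Plagl1, fell in both mutants, from a mean of 1122 ± 115 (SD, n = 4) in Wt to 402 ± 30.5 in Pkd1-/- and 552 ± 69.6 in Pkd2-/-.

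The Prader-Willi/Angelman domain on chromosome 7 holds 6 of the genes. Mkrn3, a paternally expressed ubiquitin ligase of the makorin family, was at 19, 21, 18 and 11 normalized counts in Wt, at 17, 21, 15 and 21 in Pkd1-/- and at 1, 5, 4 and 4 in Pkd2-/-. It fell in Pkd2-/- to 20.3% of the Wt mean (adjusted p = 8.91e-05), and Wt and Pkd1-/- overlapped. Snrpn, which encodes a splicing protein, was at 138 to 165 in Wt, 122 to 149 in Pkd1-/- and 89 to 99 in Pkd2-/-. Its log2 fold change in Pkd2-/- was -0.63 (adjusted p = 1.55e-04), under the fold threshold. Ube3a, a ubiquitin ligase imprinted in neurons, was at 2304 to 3368 and was not called. Snhg14, the long transcript that runs antisense to Ube3a and is not among the 40, fell in Pkd2-/- from 53.0 ± 25.5 (SD, n = 4) to 21.5 ± 6.14, with a log2 fold change of -1.20 (adjusted p = 0.00273). Ndn, Magel2 and Peg12 were at most 3 in every library. Magel2 was at 1, 1, 3 and 3 in the Pkd1-/- libraries and at 0 in every library of the other genotypes. Its mean was under the filter, so this difference was not tested.

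Mcts2 (chr2:152687035-152687946, plus strand) is a paternally expressed retrocopy of the translation factor gene Mcts1 that lies in an intron of H13, which encodes signal peptide peptidase. Mcts2 was at 254, 247, 262 and 204 normalized counts in Wt, at 296, 280, 290 and 268 in Pkd1-/- and at 552, 513, 453 and 422 in Pkd2-/-. The Pkd2-/- libraries were all above the rest, by a log2 fold change of 1.00 (SE 0.10, adjusted p = 1.07e-07). That value sits on the fold threshold, and it ran from 0.92 to 1.11 over the alternatives, below the threshold in 6 of 23, among them those without Wt library 4 and without Pkd2-/- library 1 or 2. H13 was at 3168 to 3341 in Wt and 3377 to 3592 in Pkd2-/-, with a log2 fold change of 0.09 (adjusted p = 0.117). Mcts2 counts per 100 of H13 were 6.24 to 8.02 in Wt, 8.88 to 9.62 in Pkd1-/- and 11.9 to 16.2 in Pkd2-/-. Reads of Mcts2 could be shared with its parent gene. Mcts1 was at 255 to 300 in Wt, 251 to 287 in Pkd1-/- and 239 to 287 in Pkd2-/-.

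Gatm (chr2:122594467-122611303, minus strand) encodes glycine amidinotransferase, the first enzyme of creatine synthesis, which is high in the kidney and reported as imprinted in extraembryonic tissue only. It was at 239, 188, 246 and 187 normalized counts in Wt, at 298, 305, 292 and 259 in Pkd1-/- and at 102, 93, 89 and 97 in Pkd2-/-. The genotypes did not overlap. Gatm fell by 1.16 on the log2 scale in Pkd2-/- (SE 0.11, adjusted p = 8.95e-08), and its log2 fold change in Pkd1-/- was 0.43 (adjusted p = 0.00634). Grb10, an adaptor that dampens insulin and growth factor receptors, was at 7, 5, 0 and 3 in Wt, at 0, 6, 7 and 1 in Pkd1-/- and at 0 in all 4 Pkd2-/- libraries. Against a floor of 3 counts per library its Wt mean was at least 1.25-fold higher. The Wt and Pkd2-/- ranges met at 0, and its call (adjusted p = 0.0368) was lost under 9 of 22 alternatives, among them those without Wt library 1, 2 or 4 and without any of the 4 Pkd2-/- libraries, with adjusted p up to 0.123.

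Of the 27 genes tested, 13 were not called in any comparison. Igf2r, the receptor that clears IGF2, was at 1817 to 2084 normalized counts in Wt, 1889 to 2361 in Pkd1-/- and 2179 to 2807 in Pkd2-/-, with a log2 fold change of 0.34 in Pkd2-/- (adjusted p = 0.00236). Airn, the paternally expressed antisense RNA that silences Igf2r, was at 14 to 35 in all libraries. Blcap was at 912 to 1070 in Wt, 728 to 876 in Pkd1-/- and 1210 to 1260 in Pkd2-/-. Its genotypes did not overlap, with log2 fold changes of -0.33 (adjusted p = 7.95e-04) and 0.30 (adjusted p = 0.00106). Nnat, the paternally expressed gene inside Blcap, was at most 8. Impact, an inhibitor of the stress kinase pathway of translation, was at 341 to 519 in Wt and 579 to 711 in Pkd1-/- with a log2 fold change of 0.55 (adjusted p = 0.00235). Dcn, which encodes the matrix proteoglycan decorin, was at 11 to 40 with overlapping genotypes.

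The Dlk1-Dio3 domain on chromosome 12 was close to silent. Dlk1, Rtl1, Meg3, Rian and Mirg were at most 1 normalized count in every library of each genotype, and Dio3, which is not among the 40, was at 0. Zdbf2, Rasgrf1 and Nap1l5 were at most 2. At this depth, differences among these genes were not detectable. Evl, an actin regulator that ends 764 kb before Dlk1 and is not among the 40, was at 631 to 736 in Wt and at most 3 in the mutants (log2 fold changes -8.26 and -8.91).

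By the copy that is usually active, 14 paternally and 11 maternally expressed genes were tested. In Pkd1-/- against Wt, 2 paternally expressed genes were called higher and 2 lower, and 1 maternally expressed gene was higher and 0 lower, beside 2.96% higher and 3.28% lower over all genes. In Pkd2-/- against Wt, 1 paternally expressed gene was higher and 5 were lower, and 1 maternally expressed gene was higher and 4 were lower, beside 3.24% and 6.38%. Those 4 were H19, Slc22a18, Grb10 and Gatm. The calls of Slc22a18 and Grb10 were lost under 14 and 9 of 22 alternatives. That of Mcts2, the paternally expressed gene called higher, was lost under 6 of 23. Ube3a is counted here by its side in neurons, and Dcn and Gatm by theirs in placenta or yolk sac. No test of the difference between the sides was made. Per kb of annotated exon, the highest Wt levels were those of Tssc4 at 690 normalized counts per kb, Plagl1 at 654, Peg10 at 576 and H19 at 473. In Pkd2-/- the order was led by Tssc4 at 593, Mcts2 at 532 and Peg3 at 484, while H19 was at 8.84 normalized counts per kb.

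Enzymes and factors that write, read or erase imprints were read as a list of 30 genes, 26 of which were tested. In Pkd1-/- 1 was called (3.85%, beside 6.24% of all genes). It was Tet1, an enzyme that oxidizes methylated cytosine, which fell from 49.0 ± 8.16 (SD, n = 4) to 17.0 ± 1.15 normalized counts (log2 fold change -1.46, adjusted p = 3.40e-05). By the adjusted p alone 7 were higher and 1 lower there, beside 27.1% of all genes. In Pkd2-/- Tet1 was at 30.0 ± 6.27, and limma called 0 of the list, beside 9.62% of all genes. By the adjusted p alone 11 were higher and 7 lower in Pkd2-/-, beside 42.3% of all genes, with changes under the fold threshold, and 19 had an unadjusted p below 0.05. Between the mutants 0 were called, beside 11.8% of all genes, while 7 were higher and 6 lower by the adjusted p alone, beside 46.3%, and 14 had an unadjusted p below 0.05. Medians of the list against Wt were 0.12 on the log2 scale for Pkd1-/- and 0.16 for Pkd2-/-. A list of 43 other imprinted mouse genes gave 29 that were tested, of which 3 were called higher and 4 lower in Pkd1-/- (24.1%, beside 6.24% of all genes), and 1 higher and 4 lower in Pkd2-/- (17.2%, beside 9.62%), with medians of -0.04 and -0.17. Bmp3, a bone morphogenetic protein, fell most, from 90.3 ± 6.75 to 25.8 ± 12.4 in Pkd1-/- and 2.00 ± 1.41 in Pkd2-/-. Ampd3, an AMP deaminase, rose in Pkd2-/- from 182 ± 27.1 to 701 ± 64.5. Qpct, a glutaminyl cyclase, fell in Pkd1-/- from 80.0 ± 2.16 to 30.5 ± 6.76.

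A list of 22 genes around the insulin-like growth factor axis left out Igf2 itself. It held receptors, binding proteins, adaptors and RNA-binding regulators, and also Cdkn1a, Cdkn1b and Hmga2, and 18 of the 22 were tested. In Pkd1-/- 2 were called higher and 1 lower (16.7%, beside 6.24% of all genes), and in Pkd2-/- 1 was higher and 3 were lower (22.2%, beside 9.62%). Their median log2 fold changes were -0.01 and 0.07. Igfbp2, a binding protein that carries the growth factors, was at 131 ± 28.6 in Wt and 217 ± 24.3 in Pkd1-/-, and fell to 1.00 ± 0.82 in Pkd2-/- (log2 fold change -6.12, adjusted p = 1.71e-12). Igfbp7 rose in Pkd2-/- from 662 ± 64.1 to 2129 ± 166 (log2 fold change 1.69, adjusted p = 1.05e-11). Grb14, an adaptor related to Grb10, rose in Pkd1-/- (1.25, adjusted p = 0.0355) and fell in Pkd2-/- (-1.31, adjusted p = 0.0185), at means of 3.50 to 22.0 normalized counts.

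Around the 40 genes, 288 neighbours within 1 Mb were tested. In Pkd1-/- against Wt 10 were called higher and 9 lower, or 6.60% beside 6.24% over all genes. In Pkd2-/- against Wt 17 were higher and 26 lower, or 14.9% beside 9.62%, and between the mutants 15.6% were called beside 11.8%. Within 250 kb, 110 neighbours were tested, and 5.45% were called in Pkd1-/- and 15.5% in Pkd2-/-. The neighbours of a cluster share a chromosome region, and no test of these shares was made. Only the 40 were left out of the neighbours, which thus overlap the list of other imprinted genes. Kcnq1, called in Pkd1-/-, and Phactr2, called in both mutants, are in both. Tmed3, near Rasgrf1, fell from 311 ± 19.7 to 122 ± 14.8 in Pkd1-/- and to 2.00 ± 0.82 in Pkd2-/-. Podxl, which encodes a podocyte sialoprotein and lies near Mest, rose in Pkd2-/- from 48.5 ± 7.72 to 795 ± 87.2. Abcg2, a drug efflux transporter near Nap1l5, was at 34.8 ± 8.18 in Wt and 0.25 ± 0.50 in Pkd2-/-, and Myl9, a myosin light chain gene, fell there from 106 ± 6.13 to 8.25 ± 5.25. Degs2 lies partly on Evl and fell with it.

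RefSeq promoter windows were at hand for 33 of the 40 genes, 45 windows in all. Their median GC content was 57.7% and their median CG count 15, beside 52.7% and 7 over all windows. The hexamer TGCCGC, which the imprint maintenance factor ZFP57 binds when methylated, was searched on both strands. It was found in 12 of the 45 windows (26.7%) and in 3813 of 32851 windows of all genes (11.6%), which are also poorer in CG. Of the windows printed above, that of Mest held 2 matches, those of Plagl1 and Mcts2 1 each, and those of Peg3 and Igf2 0. The share was 25.8% in windows of the genes tested and 28.6% in those of the genes not tested.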

How the data were processed

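The sources describe trimming with Trim Galore, checks with FastQC, alignment to GRCm38 with HISAT2, and counting with HTSeq. The authors deposited counts per gene divided by DESeq2 size factors and rounded to whole numbers, so the values are a score and not raw counts. The annotation and strand setting are not given in the sources used here. The value of 1 read in each library was estimated from the steps between low values, and depth is given from it. Because whole reads were not recovered, no count model was used. Values were taken as log2(value + 1), genes with a mean of at least 1 over 12 libraries were kept (18552), and limma 3.58.1 (R 4.3.3) with a variance trend was fitted to all 3 genotypes, with Benjamini-Hochberg adjustment over all genes within a comparison. The script was tested on simulated data. Single genes were also compared with exact permutation tests over all splits, and counting intervals were computed with SciPy 1.17.1. Gene positions and exon lengths came from GENCODE M21, which held 47223 of the identifiers. Every one of the 40 genes was named, with each library's value where it was called. Other lists were named by their called genes with a mean of at least 10, largest first, up to 6. The 40 genes and all lists were chosen with earlier results of these data known.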

Additional observations from a re-analysis of the deposited data

Results flagged for a closer look

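In 68 groups of 4 libraries with imprinted genes, 2 held a library far from the others, where chance gives about 1 in 20. Airn was at 14 normalized counts in Pkd2-/- library 1 and at 19 in the other libraries of that genotype. Snrpn was at 89 in Pkd2-/- library 4 and at 98 to 99 in the others. Neither gene was called in any comparison.

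For 11 genes the effects of the mutants against Wt differed when tested directly, as the log2 difference of Pkd2-/- from Pkd1-/- with limma and adjusted p-values as given in the report. They are the 11 of 27 called between the mutants, beside 11.8% of all genes tested. The difference was -5.00 for H19, -5.65 for Igf2, -1.68 for Cdkn1c and -2.77 for Slc22a18 on distal chromosome 7. It was 2.20 for Peg3 and 2.72 for Usp29. For Peg10 it was -2.94, for Mest -2.50, for Plagl1 -1.76, for Mkrn3 -2.21 and for Gatm -1.59. Each mutant is 1 clone, so these differences cannot be told apart from differences between clones.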

How the results depend on the processing

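Of 27 calls of single imprinted genes, 22 were kept under every alternative in which the gene was tested, and 0 values changed sign. There were 23 alternatives, or 22 for genes such as Phlda2, Slc22a18 and Grb10, which a mean of at least 10 leaves out. With that filter 4, 8 and 10 imprinted genes were called in Pkd1-/- against Wt, Pkd2-/- against Wt and between the mutants, in place of 5, 11 and 11. Over all genes 739, 1202 and 1458 were called with it, in place of 1158, 1785 and 2182. The 5 calls of imprinted genes lost under at least 1 alternative were those of Phlda2 in Pkd1-/- against Wt and of Slc22a18, Grb10, Mcts2 and Gatm in Pkd2-/- against Wt. Gatm was lost only with a correction for GC content and length, at -0.99. That correction, added after seeing the data, moved the median log2 fold change of imprinted genes to -0.42 in Pkd2-/- against Wt and to -0.17 in Pkd2-/- against Pkd1-/-. With no fold threshold, 12, 19 and 18 imprinted genes were called in Pkd1-/- against Wt, Pkd2-/- against Wt and between the mutants, beside 5020, 7852 and 8588 of all genes. Imprinted genes called against Wt in both mutants then numbered 4 with the same direction and 7 with opposite directions, in place of 1 and 2. Over all genes, 386 had the same direction and 206 opposite directions with the fold threshold. Such counts over all genes with no fold threshold are not given here. The count of imprinted genes with the same direction was 0 with a pseudocount of 5, with a mean of at least 10 and with no variance trend. With a mean of at least 10, 739 of all genes were called in Pkd1-/-, in place of 1158, since fewer genes were tested. The cause of the other shifts was not tested.

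Leaving out each library in turn gave 4 to 7 imprinted genes called in Pkd1-/- against Wt, 8 to 11 in Pkd2-/- against Wt and 11 to 12 between the mutants. Over all genes 1095 to 1164, 1698 to 1793 and 2061 to 2186 were called. The count of imprinted genes with the same direction was 0 to 1, and was 0 without Wt library 1 or 3 or Pkd1-/- library 1, 2 or 4. The medians ran from -0.081 to 0.012, from -0.48 to -0.25 and from -0.38 to -0.28. With the replicate block, 1170, 1790 and 2183 of all genes and 5, 11 and 11 imprinted genes were called. The labels do not say that dishes of the same number were paired. Of 12 same-numbered pairs across genotypes, 2 had deviations correlated above 0.1, with r from -0.07 to 0.20. Of 36 pairs with other numbers 2 did, with r from -0.20 to 0.11. The same-numbered 2 were libraries 4 of Wt and Pkd2-/- (0.20) and libraries 4 of Pkd1-/- and Pkd2-/- (0.17). Whether dishes of the same number were handled together was not tested. Genes at a few counts, such as Phlda2, Slc22a18 and Grb10, are limited by depth.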
